A study of Mus musculus with 6 samples.

Results

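The genes that flank *Rela* on mouse chromosome 19 were compared between the corneal epithelium of *Rela* mutant and control mice. Every gene of the deposited table was taken whose start lay on the chromosome of *Rela* and within 2 Mb of the *Rela* start, except *Rela* itself, *Fosl1*, *Ovol1*, *Cst6*, *Aldh3b1* and the genes whose symbols begin with Gst or Nduf. The rule names positions and symbols and no expression value, and it gave 160 members of 17554 genes. Of these, 84 lay on the side of smaller coordinates and 76 on the side of larger ones. The table places *Rela* (gene 19697) from 5635891 to 5649631 on chromosome 19 of GRCm38, and the members started between 3686410 and 7612569. All 160 are listed as mRNA genes. Outside the promoter sequences, the start of a gene is its smallest coordinate, whatever its strand, and distances run from start to start. The question was whether neighbours of a floxed and recombined locus differed in expression more often, or by more, than genes elsewhere.

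The 6 samples were corneal epithelium of C57BL/6 mice at 2 months of age, with 3 samples labelled WT (control) and 3 labelled Rela-/- (mutant). By the study's methods the mutants were *Krt14-Cre; Rela f/f* mice, in which a recombinase driven by the keratin 14 promoter acts on *Rela* in cells that use or have used that promoter, so *Rela* was not removed from cells of other origin. The floxed line and the Cre line were crossed to the B6 background at least 5 times. Whether the control mice carried the floxed allele or the Cre is not given for these samples, so the loss of *Rela*, the recombined locus, DNA linked to it and the Cre itself cannot be told apart. The samples are described as independent biological samples, and each p-value below measures the spread between these 6 samples only.

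RelA is a subunit of NF-κB, a transcription factor that is held in the cytoplasm by inhibitor proteins and enters the nucleus when a stimulus removes them. Genes that lie side by side on a chromosome can share regulatory DNA, and DNA next to an engineered locus tends to stay linked to it when a line is crossed into another strain. The window around *Rela* is dense in genes of unrelated function, among them actin regulators, kinases, enzymes of metabolism, splicing factors and proteins of DNA repair. The corneal epithelium is a stratified layer whose basal cells use keratin 14 and whose differentiated cells are marked by keratin 12.

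*Rela* had an FPKM of 36.5, 34.7 and 33.4 in control samples and of 4.93, 5.53 and 5.72 in mutant samples. FPKM counts fragments relative to transcript length and library total, so it can be compared between genes. The groups lay far apart, with a log2 fold change (mutant over control, here and throughout) of -2.75 and a standard error of 0.085 (edgeR adjusted p = 5.5e-07), although 230 to 270 expected counts of *Rela* were left in each mutant sample. Here and below an adjusted p is a Benjamini-Hochberg value, over all tested genes, of the quasi-likelihood test in edgeR. The expected counts, which RSEM estimates by dividing reads that fit several genes, summed to between 19492942 and 19733834 per sample. Of 17554 genes, 12667 passed edgeR's filter on low counts and were tested. Among markers of the corneal epithelium all 7 were tested. *Krt14* rose from 4735 to 6365 counts in controls to 46732 to 70381 in mutants (log2 fold change 3.32, edgeR adjusted p = 1.06e-05). *Aldh3a1* fell (-0.25, edgeR adjusted p = 0.047), and the other 5 did not pass the test. The summed level of all 7 was 87900 to 97700 CPM (counts scaled to a common library total) in control samples and 81100 to 86600 in mutant samples. Markers of stromal keratocytes summed to 0.261 to 0.555 CPM in control samples and 1.05 to 6.88 CPM in mutant samples, with *Kera* at 0 to 2 counts in every sample. Leukocyte markers summed to 327 to 356 CPM in control samples and 274 to 491 CPM in mutant samples, mostly from *Itgam* (4749 to 8725 counts), and without it to 27.4 to 32.5 CPM in control samples and 36.9 to 40.4 CPM in mutant samples. *Lyz2* had 0, 0 and 1 counts in controls and 23.7, 13 and 3.79 counts in mutants. Endothelial markers summed to 0.101 to 0.313 CPM against 0.463 to 0.698 CPM, conjunctival markers to 2050 to 2470 CPM against 1560 to 1830 CPM, and epidermal markers to 13.5 to 15.7 CPM against 11.3 to 14.3 CPM. In bulk RNA, fewer cells of a type and less RNA per cell cannot be told apart.

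The members were well expressed. A mean FPKM of at least 1 was reached by 125 of the 160, and of at least 10 by 81. The 135 members that passed the filter had a median mean FPKM of 13.3, against 8.28 over all tested genes. The 25 members that were not tested had at most 18.04 expected counts in any sample, and 10 of them had at most 3 counts in every sample. They include genes used mainly in other tissues, such as the muscle genes *Actn3* and *Pygm*, the neuronal genes *Nrxn2* and *Npas4*, and the lymphocyte genes *Ptprcap* and *Ctsw*. None of the 160 was at 0 in all samples.

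The shares of members called at the less strict threshold lay near those of all genes. Of the 135 tested members, 19 (14.1%) differed at an adjusted p of at most 0.05, against 13.2% of all tested genes. Of these, 9 were higher in mutants (6.67%, against 7.82% of all tested genes) and 10 were lower (7.41%, against 5.42%). The 9 that rose did so by 0.45 to 1.78 on the log2 scale, and the 10 that fell had log2 fold changes between -0.65 and -0.28. In the rest of chromosome 19, 41 of 315 tested genes (13.0%) were called, and on the other chromosomes and scaffolds 1616 of 12208 (13.2%). Over the 20 chromosomes with at least 100 tested genes the share called ran from 10.6% to 16.5%, so at this threshold the members fell within the range of whole chromosomes. These chromosomes hold 340 to 1025 tested genes against the 135 members, and chromosome 19 includes the members.

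At stricter thresholds the picture was not the same throughout. An adjusted p of at most 0.01 was reached by 13 members (9.63%), against 5.87% of all tested genes, 5.08% of the rest of chromosome 19 and 4.19% to 9.12% of the genes of single chromosomes. These 13 were all 9 members that rose (6.67%, against 4.1% of all tested genes) and 4 of those that fell (2.96%, against 1.78%). The study's own thresholds were an adjusted p no higher than 0.001 with at least a 2-fold change. Applied here to the edgeR test and not to the study's own p-values, they called 2 members (1.48%, against 1.37% of all tested genes), *Slc29a2* and *Cfl1*. No test was made of whether any of these shares differs from that of other genes.

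The sizes of the changes were then summarised over the members. Their median log2 fold change was -0.02, against 0.00 for the other tested genes and -0.01 for the rest of chromosome 19. The median size of the log2 fold change, without regard to sign, was 0.15 in members and 0.16 in other genes, and the SD of the log2 fold change was 0.38 in members and 0.66 in other genes. A log2 fold change of at least 1 in size was seen in 4 members (2.96%, against 4.32% of other genes), and of at least 0.5 in 19 (14.1%, against 13.4%). Fold changes above 0 were found in 62 of 135 members (45.9%), against 49.6% of other genes. In 43 members (31.9%) the CPM values of the mutants lay entirely beyond those of the controls, as they did in 33.7% of all tested genes.

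Summed over all 160 members, expression was 8985, 8822 and 9203 CPM in control samples and 8396, 9005 and 8928 CPM in mutant samples. The groups overlapped, and the log2 ratio of their means was -0.037. It was -0.0059 without mutant 1, -0.0207 without control 3 and -0.0557 without mutant 2. The members took 0.888% to 0.906% of all counts in control samples and 0.833% to 0.907% in mutant samples, the lowest share being that of mutant 1.

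**Figure D1:**
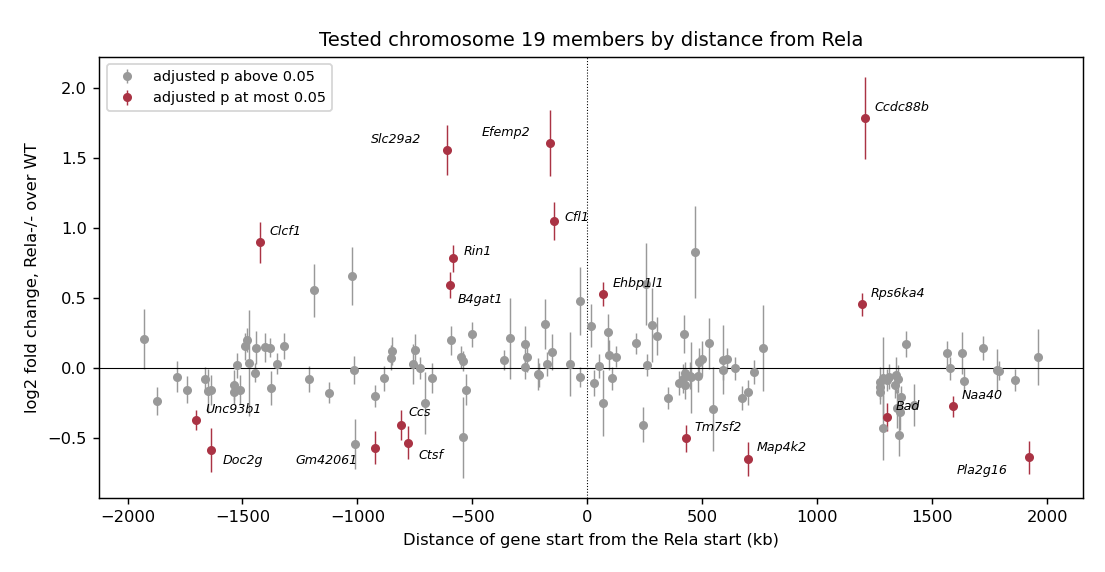
log2 fold change of each of the 135 tested members (mutant over control) against the distance of its start from the *Rela* start in kb, with bars of 1 standard error. The 19 members with an adjusted p of at most 0.05 are red and named, and they lie on both sides and at all distances, the largest rise being *Ccdc88b* (1.78) at 1209 kb.

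Distance from *Rela* was examined next, beside the 13.2% of all tested genes that were called (7.82% higher and 5.42% lower). Within 250 kb there were 25 members, of which 21 were tested and 3 called (14.3%), all higher in mutants: *Cfl1*, *Efemp2* and *Ehbp1l1*. Between 250 and 500 kb, 1 of 22 tested members was called (4.55%), the falling *Tm7sf2*. Between 500 kb and 1 Mb, 7 of 32 were called (21.9%, with 3 higher and 4 lower), and between 1 and 2 Mb, 8 of 60 (13.3%, with 3 higher and 5 lower). The share called thus did not decline step by step with distance. It was 16.7% on the side of smaller coordinates (11 of 66) and 11.6% on the other (8 of 69).

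Across the 135 tested members, the rank correlation between the size of the log2 fold change and the distance from *Rela* was -0.003, and it was -0.279 for the signed log2 fold change. Both are descriptions, since neighbouring genes are not independent and all values come from the same 6 libraries. The median log2 fold change was 0.08 within 250 kb, 0.03 from 250 to 500 kb, 0.00 from 500 kb to 1 Mb and -0.08 from 1 to 2 Mb.

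**Figure D2:**
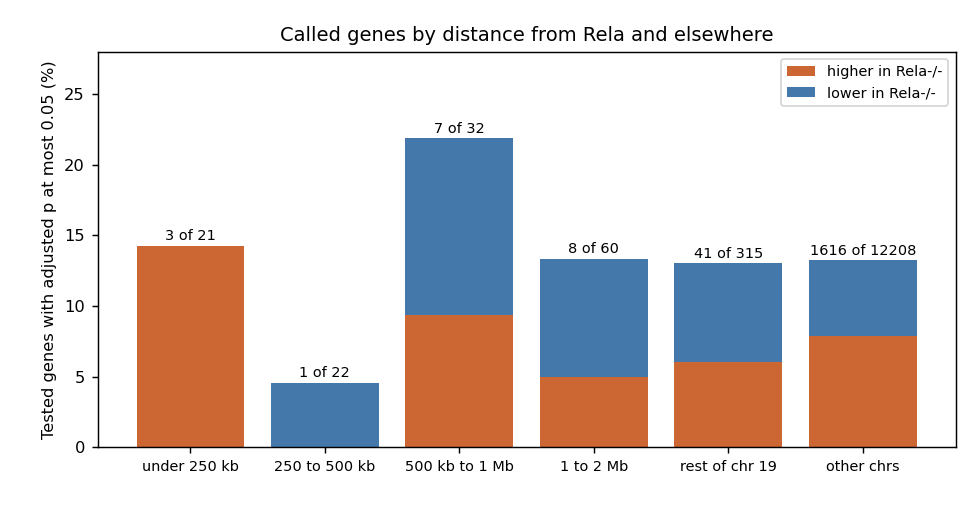
Share of tested genes with an adjusted p of at most 0.05, in percent, for members in 4 bins of distance from *Rela*, for the rest of chromosome 19 and for the other chromosomes and scaffolds. Bars are divided into genes higher (orange) and lower (blue) in mutants, and the number called of the number tested stands above each; the 500 kb to 1 Mb bin is highest at 21.9% and the 250 to 500 kb bin lowest at 4.55%.

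The nearest neighbours were then read one by one, the 4 nearest tested members on each side. On the side of smaller coordinates, *Kat5* (gene start 32.9 kb away), which encodes the acetyltransferase TIP60, had an FPKM of 21.02, 19.42 and 20.88 in controls and of 19.74, 19.58 and 19.62 in mutants. The mutant values lay inside the control range, and the 95% interval of the log2 fold change ran from -0.23 to 0.09. *Rnaseh2c*, a subunit of the ribonuclease that cuts RNA from RNA-DNA hybrids, had 7.30, 6.21 and 8.34 FPKM in controls and 13.7, 9.74 and 7.03 FPKM in mutants. Mutant 1 was well above every control sample and mutant 3 among them, so the interval was wide, from -0.07 to 1.02 (adjusted p = 0.24, edgeR). *Rnaseh2c* and *Kat5* run in opposite directions and 24.8% of the exon bases of *Rnaseh2c* overlap *Kat5* in GENCODE, so their reads cannot be told apart there without strand. *Ap5b1*, a subunit of the adaptor complex AP-5 of late endosomes, had 2.74, 2.81 and 2.76 FPKM in controls and 3.61, 3.08 and 1.74 FPKM in mutants, which lay on both sides of the controls (interval -0.49 to 0.54).

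*Cfl1* was the neighbour that differed. It encodes cofilin-1, which severs and depolymerises actin filaments, and lies 145.4 kb from *Rela*, from 5490455 to 5494031. Its FPKM was 56.5, 37.3 and 42.3 in control samples and 93.7, 88.9 and 99.2 in mutant samples. Every mutant value was far above every control value, and the means were 45.35 ± 10.01 (SD, n = 3) and 93.96 ± 5.16 (SD, n = 3). The log2 fold change was 1.05 with a standard error of 0.13 (edgeR adjusted p = 9.97e-04), just inside the study's threshold of 0.001. Of its exon bases 16.5% overlap *Snx32* on the opposite strand, a member that had at most 6 counts in any sample.

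On the side of larger coordinates, *Sipa1*, a GTPase-activating protein for Rap, had the nearest start of all at 15.3 kb. The gene runs from 5651185 to 5663839, just beyond the *Rela* end at 5649631. Its FPKM was 1.30, 1.48 and 1.17 in controls and 1.42, 1.71 and 1.76 in mutants. The groups overlapped at the lowest mutant, and the interval of the log2 fold change was -0.05 to 0.65. *Pcnx3*, a membrane protein of the pecanex family, had 13.5, 14.8 and 12.8 FPKM against 11.3, 13.1 and 13.9 FPKM (interval -0.31 to 0.09). *Map3k11*, which encodes the kinase MLK3 of the JNK cascade, had 20.8, 20.6 and 20.7 FPKM against 18.8, 22.6 and 22.2 FPKM (interval -0.18 to 0.20). The mutant values of *Map3k11* lay on both sides of its controls, and those of *Pcnx3* overlapped the controls with 1 mutant below all of them. *Kcnk7*, of the K2P potassium channel family, had 1.81, 1.78 and 1.93 FPKM against 1.86, 1.26 and 1.49 FPKM (interval -0.78 to 0.27), again with overlap.

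Exact two-sided permutation tests over the 3 control and 3 mutant samples gave p = 0.1 for *Cfl1*, the smallest value this design allows, and p between 0.2 and 1.0 for the other 7 neighbours. These 8 p-values were not adjusted for their number. For *Kat5*, *Pcnx3* and *Map3k11*, the better expressed of the uncalled neighbours, the 95% intervals left out a log2 change of 0.5 in either direction. For *Rnaseh2c*, *Sipa1* and *Kcnk7* they did not, and for *Ap5b1* the interval reached past 0.5 above. A change of that size therefore cannot be told from none in those 4 genes.

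**Figure D3:**
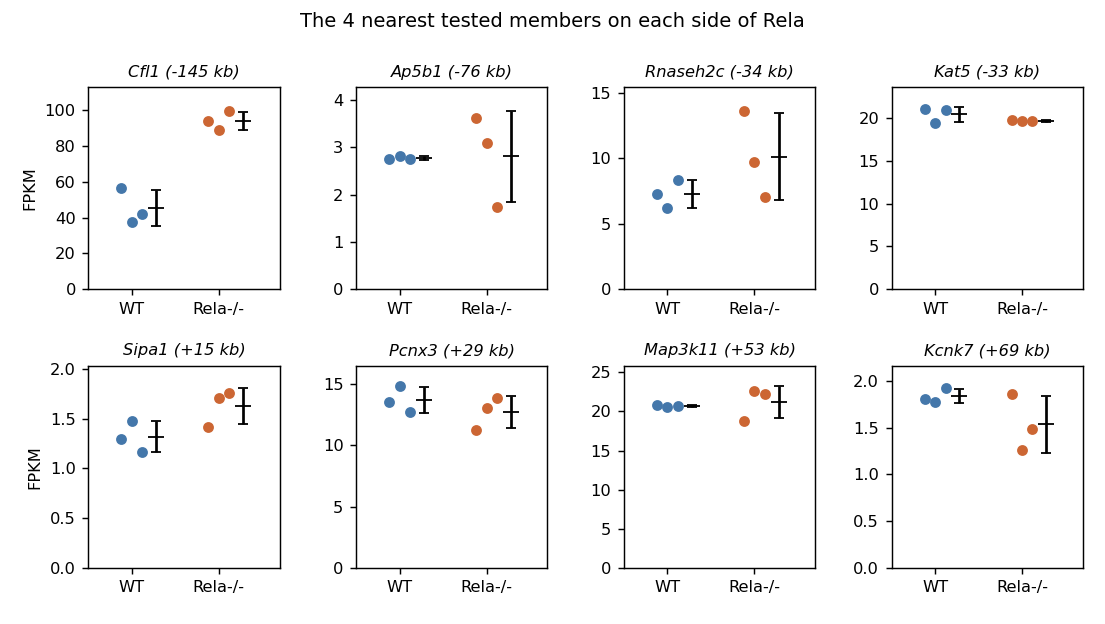
FPKM in each of the 3 control (blue) and 3 mutant (orange) samples for the 4 nearest tested members on each side of *Rela*, with the mean and SD in black and the distance of each gene start in kb. The mutant points of *Cfl1* (88.9 to 99.2) lie above its control points (37.3 to 56.5), and the points of the other 7 genes overlap between the groups.

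Promoter sequences of 5 members are shown because they set the letters of the kappa B consensus, the 10-base pattern bound by NF-κB dimers, beside genes that rose, fell or did not differ. Each run is the 250 bases before the RefSeq start in GRCm38.p6, on the strand of the gene, and capitals mark a match to the consensus on either strand. *Map4k2* (chr19:6340910-6341159, plus strand) fell, *Ccdc88b* (chr19:6858212-6858461, minus strand) rose and *Sipa1* (chr19:5663708-5663957, minus strand) was not called. *Cfl1* (chr19:5490205-5490454, plus strand) and *Slc29a2* (chr19:5023756-5024005, plus strand) were the 2 members called at the study's thresholds, and neither window holds a match.
Map4k2: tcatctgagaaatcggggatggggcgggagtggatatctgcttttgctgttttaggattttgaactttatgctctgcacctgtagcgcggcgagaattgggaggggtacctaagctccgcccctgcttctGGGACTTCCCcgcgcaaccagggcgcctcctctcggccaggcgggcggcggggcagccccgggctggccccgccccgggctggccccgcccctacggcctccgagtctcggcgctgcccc
Ccdc88b: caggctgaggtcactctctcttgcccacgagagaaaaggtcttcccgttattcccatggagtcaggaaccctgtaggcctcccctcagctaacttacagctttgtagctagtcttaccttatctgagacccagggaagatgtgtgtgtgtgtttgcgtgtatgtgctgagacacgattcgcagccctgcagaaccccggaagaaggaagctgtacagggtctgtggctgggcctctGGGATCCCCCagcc
Sipa1: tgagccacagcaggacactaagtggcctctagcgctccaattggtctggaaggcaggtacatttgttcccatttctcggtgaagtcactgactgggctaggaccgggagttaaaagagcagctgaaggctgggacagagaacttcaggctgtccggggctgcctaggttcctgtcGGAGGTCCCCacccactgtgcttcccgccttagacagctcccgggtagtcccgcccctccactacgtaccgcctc
Cfl1: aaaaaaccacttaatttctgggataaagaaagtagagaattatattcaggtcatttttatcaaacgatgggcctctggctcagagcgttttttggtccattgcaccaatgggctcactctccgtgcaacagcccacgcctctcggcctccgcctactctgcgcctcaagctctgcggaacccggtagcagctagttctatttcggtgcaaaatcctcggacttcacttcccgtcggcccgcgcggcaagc
Slc29a2: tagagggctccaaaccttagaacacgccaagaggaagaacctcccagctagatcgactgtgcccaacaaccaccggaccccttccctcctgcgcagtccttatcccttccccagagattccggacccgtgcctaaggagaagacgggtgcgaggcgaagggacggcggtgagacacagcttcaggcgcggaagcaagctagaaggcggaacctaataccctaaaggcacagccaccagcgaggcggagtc
The match begins 120 bases before the start in *Map4k2*, 14 in *Ccdc88b* and 75 in *Sipa1*.

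RefSeq gave such windows for 117 of the 160 members, 149 windows in all. The kappa B consensus was found in 8 of the 149 (5.37%), against 7.25% of 32851 windows of all genes, and the AP-1 pattern TGANTCA in 7 (4.7%), against 6.75%. Both strands were searched, and neither pattern can lie inside the other. Of the 16 called members with a window, the kappa B consensus was in 2, *Map4k2* and *Ccdc88b*, and TGANTCA in 2, *Pla2g16* and *Rps6ka4*. A match is a run of letters and not a known site, and the lack of one says only that the letters are not in this window.

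Of the 9 members that rose, 4 were placed on the list of actin, adhesion and matrix genes. The placement is not unique, since *Rin1* and *Ehbp1l1* are also linked to Rab proteins of vesicle transport. Of the 16 members listed under actin, adhesion and matrix, 13 were tested, 4 rose (*Cfl1*, *Efemp2*, *Rin1* and *Ehbp1l1*), none fell and 9 were not called, with a median log2 fold change of 0.15. By DESeq2 the counts were also 4 and 0, and at an unadjusted p under 0.05 from edgeR 3 members of the list were lower. Over all tested genes 7.82% rose. The list was drawn up with earlier results of these data known, so these counts are not a result about the list. *Efemp2*, which encodes fibulin-4, a protein of elastic fibre assembly, had 1.24, 1.05 and 0.70 FPKM in controls and 3.61, 2.56 and 2.66 FPKM in mutants. All mutants were above all controls, with a mean of 1.00 ± 0.27 (SD, n = 3) in controls and 2.94 ± 0.58 (SD, n = 3) in mutants and a log2 fold change of 1.60 with a standard error of 0.24 (edgeR adjusted p = 0.0022).

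Mutant 1 was the highest sample of *Efemp2* and also of the keratocyte markers *Dcn* (66 counts in mutant 1, 34 and 14 in mutants 2 and 3, and 1 to 3 in controls) and *Lum* (23, 10 and 0 counts, and 0 or 1 in controls). In mutants 1, 2 and 3, *Col1a2* had 20, 11 and 1 counts and was also highest in mutant 1. *Col1a1* was equal in mutants 1 and 2 (23, 23 and 6 counts), and *Kera* was not raised in mutant 1 (1, 2 and 0 counts). Of the 5 keratocyte markers only *Dcn* could be tested, and it rose. Without mutant 1 the log2 fold change of *Efemp2* was 1.44 (edgeR adjusted p = 0.0036), and the part of the keratocyte markers in the result was not tested.

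*Rin1*, which encodes a Ras effector that activates Rab5, lay 585.9 kb from *Rela* and had 15.0, 12.7 and 11.5 FPKM in controls and 20.9, 23.1 and 23.6 FPKM in mutants. The groups did not overlap, and the log2 fold change was 0.78 with a standard error of 0.098 (edgeR adjusted p = 8.85e-04). *Ehbp1l1*, which encodes an adaptor of vesicle transport linked to Rab8, lay 70.2 kb from *Rela*, with 7.29, 5.87 and 5.55 FPKM against 8.95, 8.29 and 9.01 FPKM. Its smaller rise, of 0.53 with a standard error of 0.088, also left the groups apart (edgeR adjusted p = 0.0045). The 9 members of the list that were not called include *Coro1b*, *Ssh3* and *Capn1*, of which *Ssh3* encodes a phosphatase that acts on cofilin.

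**Figure D4:**
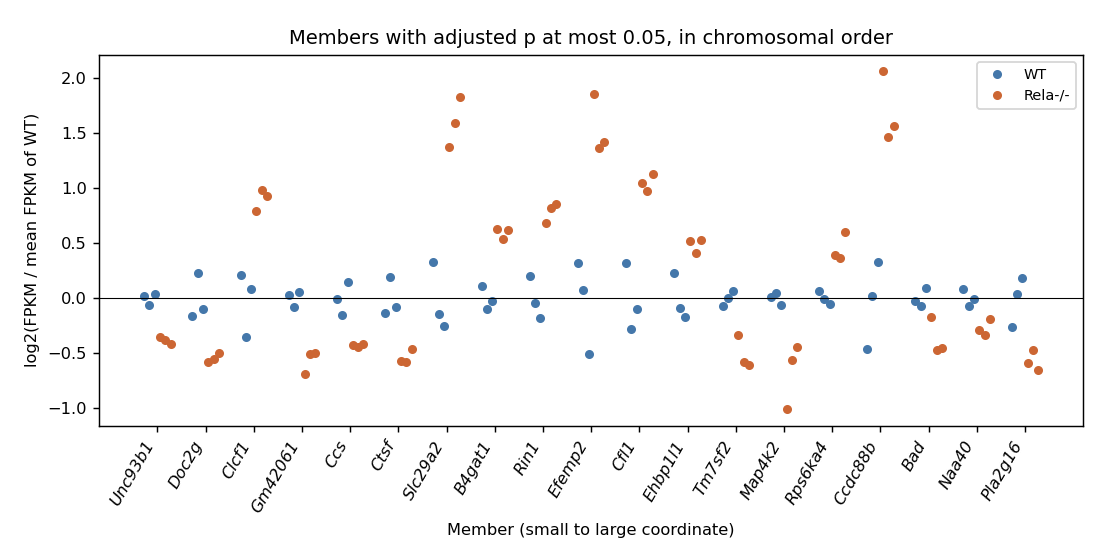
Level in each control (blue) and mutant (orange) sample of the 19 members with an adjusted p of at most 0.05, as the log2 ratio of its FPKM to the mean FPKM of the 3 control samples, in order along chromosome 19. In each of the 9 members that rose and the 10 that fell, the mutant points lie beyond the control points.

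*Slc29a2*, from the list of receptors, channels and carriers, had the smallest adjusted p of the members. It encodes an equilibrative nucleoside transporter and lay 611.9 kb from *Rela*. Its FPKM was 1.44, 1.04 and 0.96 in controls and 2.97, 3.46 and 4.07 in mutants, means of 1.15 ± 0.26 (SD, n = 3) and 3.50 ± 0.55 (SD, n = 3). No values overlapped, and the log2 fold change was 1.55 with a standard error of 0.18 (edgeR adjusted p = 5.93e-04). It was the single called gene of the 4 tested on its list, while 13.2% of all tested genes were called.

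*B4gat1*, which encodes a glucuronyltransferase needed to glycosylate dystroglycan, lies between *Slc29a2* and *Rin1* and is on no list. It had 8.14, 7.05 and 7.41 FPKM in controls and 11.6, 10.9 and 11.6 FPKM in mutants, which did not overlap (log2 fold change 0.59, standard error 0.090, edgeR adjusted p = 0.0027). In GENCODE, 85.3% of its exon bases are shared with a gene model on the same strand named AC124502.3, so its counts are uncertain. *Brms1*, the neighbouring member, was not called at 0.19 (95% interval -0.04 to 0.43).

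Among 11 members listed as leukocyte and inflammatory genes, 8 were tested, 2 rose, 1 fell and 5 were not called, with a median log2 fold change of -0.01. Over all tested genes 7.82% rose and 5.42% fell, so counts this small over 8 genes are not a result about the list. *Clcf1*, a cytokine of the interleukin-6 family, had 5.08, 3.44 and 4.63 FPKM in controls and 7.57, 8.67 and 8.35 FPKM in mutants. The lowest mutant was above the highest control, and the log2 fold change was 0.90 with a standard error of 0.15 (edgeR adjusted p = 0.0039). *Ccdc88b*, which encodes a hook-related protein of leukocytes, was low in all samples, with 0.15, 0.21 and 0.26 FPKM against 0.86, 0.57 and 0.61 FPKM. The groups lay apart, and the log2 fold change of 1.78 (standard error 0.29, edgeR adjusted p = 0.0040) was the largest among the tested members.

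*Ccdc88b* was highest in mutant 1, as was the leukocyte marker *Laptm5*, which had 6 to 10 counts in controls and 29, 16 and 17 in mutants. Of 8 leukocyte markers 5 were tested and *Laptm5* alone was called. *Ptprc*, which marks all leukocytes, had 1 to 6 counts in controls and 14, 2 and 9 in mutants. By counts *Lyz2*, *Cd68* and *Itgam* were also highest in mutant 1. The other markers were not, with 18, 22 and 14 counts of *Cd52* in mutants 1, 2 and 3, 107, 94 and 159 of *Cd74*, and 0, 5 and 0 of *Cd3e*. Without mutant 1 the log2 fold change of *Ccdc88b* was 1.53 (edgeR adjusted p = 0.0073), and the part of leukocyte RNA was not tested.

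*Unc93b1*, which carries the nucleic acid-sensing Toll-like receptors to endosomes, was the member of this list that fell. It had 23.1, 21.8 and 23.3 FPKM in controls and 17.8, 17.5 and 17.1 FPKM in mutants, with little spread in either group and no overlap (log2 fold change -0.37, standard error 0.074, edgeR adjusted p = 0.0096). The other tested members of the list were *Fermt3* (kindlin-3, log2 fold change -0.21), *Tcirg1* (a subunit of the proton pump V-ATPase, -0.16), *Batf2* (a bZIP transcription factor, 0.17), *Rasgrp2* (a Rap activator of platelets, 0.14) and *Peli3* (a ubiquitin ligase of Toll-like receptor signalling, -0.25), of which none was called.

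Among 11 tested kinases and phosphatases 1 rose and 1 fell, against 7.82% and 5.42% of all tested genes. *Rps6ka4*, which encodes the nuclear kinase MSK2 that phosphorylates histone H3 and CREB, had 27.00, 25.66 and 24.83 FPKM in controls and 33.87, 33.15 and 39.20 FPKM in mutants, a log2 fold change of 0.45 (standard error 0.080, edgeR adjusted p = 0.0057). Of its exon bases 18.2% are shared with a gene model on the same strand named CAAA01066123.1. *Map4k2*, the germinal centre kinase upstream of JNK, had 12.1, 12.3 and 11.5 FPKM in controls and 5.95, 8.08 and 8.81 FPKM in mutants, a log2 fold change of -0.65 (standard error 0.12, edgeR adjusted p = 0.0077). The FPKM values of *Rps6ka4* and of *Map4k2* did not overlap between the groups, and mutant 1 was the lowest sample of *Map4k2*. *Map3k11*, *Mark2* and *Rps6kb2* were among the 9 kinases and phosphatases not called.

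Of the 10 members that fell, 3 were placed on the list of metabolism and mitochondria. Of 12 tested members listed under metabolism and mitochondria, none rose, 3 fell and 9 were not called, with a median log2 fold change of -0.17. Over all tested genes 5.42% fell, and DESeq2 called 0 of the list higher and 4 lower, while at an unadjusted p under 0.05 edgeR gave 0 higher and 5 lower. This list too was drawn up with earlier results of these data known, so these counts are not a result about the list. *Tm7sf2*, which encodes a sterol reductase of cholesterol synthesis, had 27.50, 28.94 and 30.30 FPKM in controls and 22.87, 19.39 and 19.04 FPKM in mutants, a log2 fold change of -0.50 (standard error 0.097, edgeR adjusted p = 0.0087). Its mutant values were all below its control values. *Tm7sf2* and *Vps51* have identical entries for exon overlap (12.1%, each with *Vps51*), so the overlap of either gene is uncertain. *Vps51* was not called at -0.03. The others of the list that fell were *Ccs*, the copper chaperone of superoxide dismutase (-0.41, edgeR adjusted p = 0.037), and *Bad*, a BH3-only protein of the mitochondrial death pathway (-0.35, edgeR adjusted p = 0.044).

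*Pla2g16*, which encodes a phospholipase and acyltransferase, is on no list and had 44.4, 54.8 and 60.5 FPKM in controls and 35.4, 38.3 and 33.9 FPKM in mutants. The groups did not overlap, and the log2 fold change was -0.64 (standard error 0.12, edgeR adjusted p = 0.0075). It lay 1922 kb from *Rela*, near the edge of the window.

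The remaining members that fell did so by less than 0.6 on the log2 scale. They were *Gm42061* (-0.57), *Doc2g* of the C2-domain DOC2 family (-0.59), *Ctsf*, a lysosomal cysteine protease (-0.54), and *Naa40*, which acetylates the amino end of histones H2A and H4 (-0.28), with adjusted p from edgeR between 0.013 and 0.039. *Naa40* was the single called gene of 17 tested in DNA replication, repair and chromatin, while 13.2% of all tested genes were called. Of the exon bases of *Doc2g*, 63.5% are shared with the gene model Gm49405 on the same strand, and 20.5% of those of *Bad* with *Gpr137* on the opposite strand, and *Gpr137* was not called at -0.09. *Gm42061* had no match in GENCODE.

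In 2 of the functional lists none of the tested members was called by edgeR, against 13.2% of all tested genes. These were RNA processing and translation, with 13 tested members such as *Sf3b2*, *Sf1* and *Rbm14* and a median log2 fold change of 0.01, and membrane trafficking, with 16 tested members such as *Rab1b*, *Ehd1* and *Vps51* and a median of 0.03. DESeq2 also called 0 in both, while at an unadjusted p under 0.05 edgeR gave 1 higher and 1 lower in the first and 1 higher in the second. Counts of 0 in lists this small are not a result about the lists. *Rin1* and *Ehbp1l1*, described above by their links to Rab proteins, were placed under actin, adhesion and matrix and not under membrane trafficking. The lists together cover 102 of the 160 members, and 5 of the 19 called members are on none.

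The members with the highest levels were not called. *Prdx5*, a peroxiredoxin of mitochondria and peroxisomes, had a mean FPKM of 518 ± 28 (SD, n = 3) in controls and 471 ± 24 (SD, n = 3) in mutants. *Fau*, which encodes ribosomal protein S30 fused to a ubiquitin-like protein, had 335 ± 23 and 397 ± 80 FPKM, with mutant 1 (305 FPKM) below the controls and mutants 2 and 3 (435 and 451 FPKM) above the controls, whose highest value was 359 FPKM. *Capn1*, the protease calpain-1, had 299 ± 0.6 and 258 ± 24 FPKM, with mutants below controls in each sample (log2 fold change -0.22, edgeR adjusted p = 0.11). *Aldh3b2*, an aldehyde dehydrogenase, and *Ppp1r14b*, an inhibitor of protein phosphatase 1, overlapped between the groups at log2 fold changes of -0.08 and -0.12.

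Along the chromosome the 19 called members fell into 7 runs of the same direction. The longest run of rises began with *Slc29a2* and went through *B4gat1*, *Rin1*, *Efemp2* and *Cfl1* to *Ehbp1l1*, a stretch of 682 kb that contains the *Rela* locus. This stretch was noticed after the values were seen and was not tested. Its ends were set at called members that rose, and a run holds no called fall, so the lack of falls was fixed in advance. The share that rose was raised by the same choice and cannot be read against that of all tested genes. It held 29 tested members, of which 6 rose (20.7%, against 7.82% of all tested genes), none fell (against 5.42%) and 23 were not called by edgeR, and of those 23, 16 had a log2 fold change above 0 and 7 below, with a median of 0.05. DESeq2 gave the same counts of 6 and 0, and at an unadjusted p under 0.05 edgeR gave 7 higher and 0 lower. Called genes that lay close together with the same direction were *Slc29a2*, *B4gat1* and *Rin1* (starts within 26.0 kb), *Efemp2* and *Cfl1* (16.5 kb), *Rps6ka4* and *Ccdc88b* (16.2 kb) and *Ccs* and *Ctsf* (29.8 kb).

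Exon overlap bears on some members as a limit. Of the 156 members matched to GENCODE, 22 share more than 20% of their exon bases with another gene and 75 share none. These totals are approximate, since *Tm7sf2* and *Vps51* have identical entries and *Sssca1* is set against a gene model of its own name. *Ccdc85b*, a member 182.7 kb from *Rela*, shares 24.7% of its exon bases with the left-out *Fosl1* on the opposite strand and was not called at 0.31 (95% interval -0.08 to 0.71). *Slc29a2*, *Rin1*, *Ehbp1l1*, *Ccdc88b*, *Pla2g16*, *Unc93b1*, *Ctsf*, *Ccs* and *Naa40* share no exon base with another gene.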

How the data were processed

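RNA of corneal epithelium from 3 control and 3 mutant mice was sequenced in bulk. The authors filtered single-end 50-base reads with SOAPnuke, aligned them with Bowtie2 2.2.5 and deposited RSEM 1.2.12 expected counts, neither normalized nor pooled. They also deposited FPKM, scaled by transcript length and sample total. The methods name rRNA removal and BGISEQ-500, while the labels name an Illumina TruSeq kit; whether counting used strand is not given in the sources used here. The submitters' notes name mm9, but the coordinates are those of GRCm38. The authors' deposited log2 fold changes and p-values were not used, and 0 per-sample columns were left out.

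Samples were grouped by the labels' genotype. Expected counts were rounded and fitted over all genes with edgeR 4.0.16 (R 4.3.3, TMM scaling, filterByExpr set to 10 counts and a total of 15, quasi-likelihood test, Benjamini-Hochberg adjustment over 12667 genes). Depth was 19492942 to 19733834 expected counts per sample. Standard errors were obtained by dividing the size of each log2 fold change by the root of its F statistic. Single values were compared by exact permutation tests. Alternatives were DESeq2 1.42.0, upper-quartile scaling, other filters, limma 3.58.1 on log2(FPKM + 1) and log2(FPKM + 0.1), a replicate block, each sample left out, other windows and thresholds, and, added after seeing the data, scaling of summed counts by totals. The statistics were tested on simulated data. Members and lists were chosen with earlier results of these data known. Members named in full were the 4 nearest tested on each side, all with an adjusted p of at most 0.05, the 5 with the highest mean FPKM and the tested leukocyte and inflammatory genes; other members were named after their values were seen. Exon overlap was counted in GENCODE M21 and promoters were taken from RefSeq GRCm38.p6.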

Additional observations from a re-analysis of the deposited data

How the results depend on the processing

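The number of members with an adjusted p of at most 0.05 was 19 in the main result (14.1%, against 13.2% of other genes). It was 20 by DESeq2 (14.8%, against 14.4%), 19 with upper-quartile scaling (14.1%, against 13.2%) and 19 without a filter (11.9%, against 9.86%). A minimum of 10 counts in every sample gave 19 (14.2%, against 12.9%), and limma 19 with either pseudocount (14.1%, against 12.1% and 12.3%). The number was 14 to 19 when 1 sample was left out. The shares were then 11.7% (against 8.67%), 11.7% (against 6.6%) and 10.2% (against 7.73%) without WT replicates 1, 2 and 3. Without Rela-/- replicates 1, 2 and 3 they were 14.1% (against 14.6%), 10.3% (against 9.21%) and 11.8% (against 11.2%). The number called was 11 of 75 in a window of 1 Mb (14.7%, against 13.2% of other genes) and 4 of 43 in one of 500 kb (9.3%, against 13.3%). In a window of 5 Mb it was 24 of 184 (13.0%, against 13.2%). These windows hold fewer or more genes by construction. With the left-out genes put back it was 20 of 143 (14.0%, against 13.2%). With the replicate number as a block it was 15 (11.1%, against 11.2% of other genes), against 19 without. The correlations of the deviations of same-numbered samples were 0.019, 0.048 and -0.046. With so few samples they cannot show whether the samples were paired, and the labels give no link beyond the number. The count at the study's thresholds was 2, but 4 by DESeq2, 3 without a filter, 1 with upper-quartile scaling, 1 with the replicate block, 1 in the 500 kb window and 0 by limma with either pseudocount. It was 0 to 2 when 1 sample was left out, and 0 without WT replicate 2, WT replicate 3, Rela-/- replicate 2 or Rela-/- replicate 3. In the main result the share at these thresholds was 1.48%, against 1.37% of all tested genes. The share of all tested genes under the alternatives is not given here, so these changes in the count are not a result about the members. Their cause was not tested. The median log2 fold change was -0.0192 in the main result, 0.0254 in the 1 Mb window, 0.0392 in the 500 kb window and -0.0378 to 0.0151 with 1 sample left out, the value above 0 being that without WT replicate 3. The signed rank correlation with distance was -0.206 to -0.302 over the alternatives, and that of the size of the change -0.055 to 0.043.

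Of the 19 called members, 13 passed 0.05 in each of 13 settings, the 9 that rose and *Pla2g16*, *Map4k2*, *Tm7sf2* and *Unc93b1*. The others that fell lost the call in 1 setting (*Gm42061*), 2 (*Ctsf*), 6 (*Ccs* and *Bad*) or 8 (*Naa40* and *Doc2g*), with none reversed. *Fau* passed without Rela-/- replicate 1 (0.39). The sign changed in 5 uncalled members. *Ap5b1* was -0.0187 and -0.0409 by limma with pseudocounts of 1 and 0.1, -0.0175 with the replicate block and -0.2003 to 0.2814 with 1 sample left out, below 0 without Rela-/- replicate 1 or 2. *Map3k11* was -0.0011 with upper-quartile scaling and -0.036 to 0.0848 with 1 sample left out, below 0 without WT replicate 1 or Rela-/- replicates 2 or 3. With 1 sample left out, *Batf2* (-0.0668 to 0.3093) and *Rasgrp2* (-0.0885 to 0.315) turned without Rela-/- replicate 2, and *Peli3* (-0.4256 to 0.0441) without WT replicate 2. The small number of samples limits what could be detected in members with few counts.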
